A study of Mus musculus with 4 samples.

Results

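A set of 230 DNase I hypersensitive regions was described that were open before hormone and had lower tag density with dexamethasone, a synthetic ligand of the glucocorticoid receptor (GR). They were taken from 20687 regions present in the lists of all 4 libraries, out of 103288 regions obtained by merging the lists. A region was included when its highest maximum tag density, divided by the library's median over the 20687 regions, was at least 1.5-fold lower in Dex than in untreated cells and at least 1.5-fold lower in Dex+E2 than in E2 cells. The regions were thus chosen by the maximum densities of all 4 libraries, so these values are given as a description and support nothing by themselves. On this scale all 230 regions were lower in the Dex libraries, as the choice requires, and below they are called the Dex-lower regions.

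The cells were 7438, a mouse mammary line that makes GFP-tagged GR and Cherry-tagged estrogen receptor (ER) from a promoter repressed by tetracycline. All groups carried both receptors and were freed of tetracycline for 24 h in charcoal-dextran serum. The groups were cells given 100 nM Dex for 30 min, cells given 100 nM Dex and 100 nM estradiol (E2) for 30 min, cells given 100 nM E2 alone for 30 min, and untreated cells. The lists held 51251 regions after Dex, 50061 after Dex+E2, 35496 after E2 and 65879 in untreated cells, and read totals were not given in the labels. Each condition had 1 library of 1 line, so no difference could be set against a spread between replicates and no p-value was computed. The tagged receptors are made from transgenes, and both were induced in the untreated cells too. Positions are those of mm9 as deposited. Gene annotation and sequence of that build were not used here, so the regions carry no gene names, and markers of mammary cells were not analysed here.

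As background, DNase I cuts where nucleosomes are displaced or loosened, which marks promoters and enhancers held open by bound transcription factors. GR resides in the cytoplasm until it binds ligand, then enters the nucleus, and in mouse mammary cells it binds largely at chromatin that was accessible before hormone. Ligand-bound GR raises transcription of some genes and lowers that of others, including inflammatory genes driven by AP-1 and NF-kappaB. ER is the corresponding receptor for estradiol.

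At the 230 Dex-lower regions the median maximum tag density was 10.2 after Dex, against 37.7 in untreated cells, and 10.2 after Dex+E2, against 11.7 after E2. Over all 20687 shared regions the medians were 14.7 after Dex, against 30.1 in untreated cells, and 15.4 after Dex+E2, against 10.2 after E2. The Dex-lower regions thus stood below the typical shared region in both libraries with Dex and above it in both libraries without Dex. In units of the library median they were at 0.692 after Dex, against 1.25 in untreated cells, and at 0.662 after Dex+E2, against 1.15 after E2. Their range in the deposited densities was 4.16 to 66.9 after Dex, against 14.3 to 237 in untreated cells, and 4.08 to 57.2 after Dex+E2, against 5.20 to 64.4 after E2. They were neither the weakest nor the strongest regions of the untreated library, whose shared regions reached 15878.

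**Figure D1:**
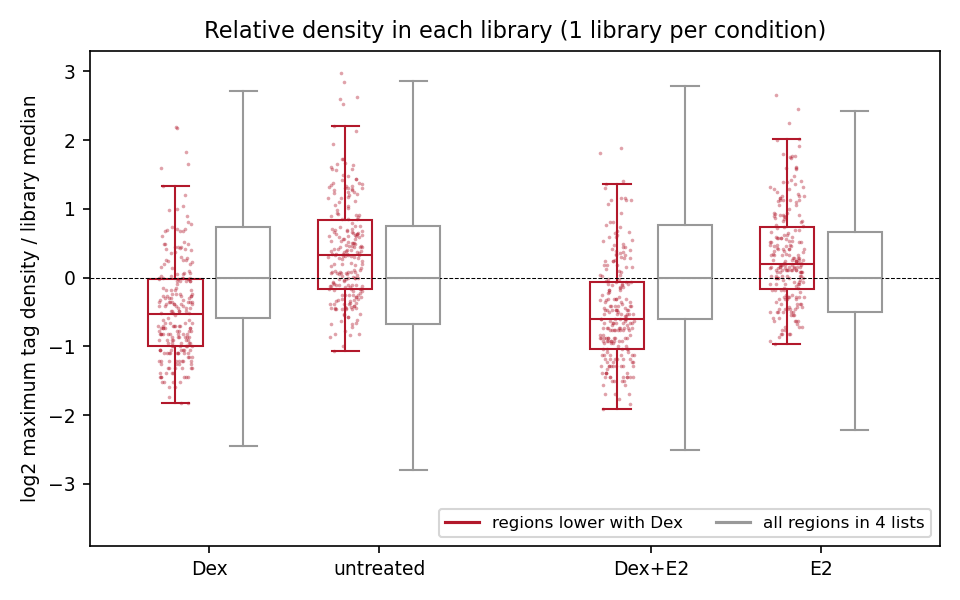
Log2 of the maximum tag density over the library median, for the 230 Dex-lower regions (red, each point 1 region) and all 20687 shared regions (grey), in each of the 4 libraries. Boxes span the quartiles with the median as a line, and whiskers reach the last value within 1.5 box lengths. The red medians lie at 0.692 and 0.662 of the library median in the Dex and Dex+E2 libraries, against 1.25 in the untreated and 1.15 in the E2 library.

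The median log2 ratio of Dex over untreated was -0.81 at the Dex-lower regions, with quartiles of -0.95 and -0.68, or 1.75-fold lower. For Dex+E2 over E2 it was -0.76, with quartiles of -0.90 and -0.66, or 1.70-fold lower. The typical change lay not far beyond the limit of -0.58 on the log2 scale: 113 of the 230 regions had their weaker ratio within 0.1 of it, and a further 259 regions lay within 0.1 on the other side. At least 2-fold lower in both comparisons were 9 regions, or 0.0435% of the shared regions.

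Of all shared regions, 1328 (6.42%) met the limit in Dex over untreated and 1921 (9.29%) in Dex+E2 over E2, and these comparisons have no library in common. The 230 regions that met both (1.11%) made up 17.3% of the first list and 12.0% of the second. Regions lower in Dex over untreated but at least 1.5-fold higher in Dex+E2 over E2 numbered 16 (0.0773%). In the other mixed direction, higher in Dex over untreated and lower in Dex+E2 over E2, there were 538 (2.60%), and 753 (3.64%) were higher in both. The scatter of both comparisons shows the Dex-lower regions as the lower left corner of a cloud whose longer arm points up and to the right.

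**Figure D2:**
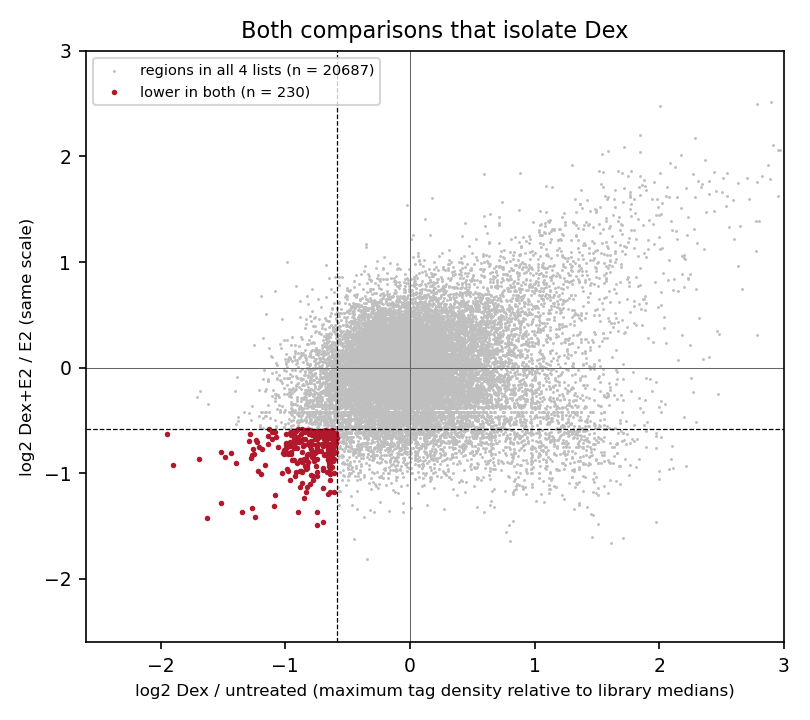
Log2 ratio of Dex over untreated (x) and of Dex+E2 over E2 (y) for the regions in all 4 lists, as maximum tag density relative to the library medians. Dashed lines mark the 1.5-fold limits, red points the 230 Dex-lower regions, and 18 regions lie beyond the axes.

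The region lowered most by its weaker ratio was chr15:33573136-33574621. Its density was 12.2 (9.09 to 16.1) after Dex, against 77.5 (69.1 to 86.8) in untreated cells, and 17.5 (13.8 to 21.8) after Dex+E2, against 31.0 (26.3 to 36.3) after E2. Intervals are exact Poisson 95% intervals on the tags at the summit and cover counting error only. Relative to the medians this was log2 -1.63 (-2.09 to -1.19) and -1.42 (-1.84 to -1.02). Both libraries with Dex lay far below both libraries without it. Relative to the medians, though not as deposited, the region was somewhat higher in the E2 than in the untreated library, at log2 0.24.

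Next came chr1:121205246-121206266, with 14.2 after Dex, against 74.0 in untreated cells, and 11.1 after Dex+E2, against 19.0 after E2. A shorter region of 765 bp, chr8:118280672-118281437, had 7.10 after Dex, against 41.6 in untreated cells, and 7.49 after Dex+E2, against 12.0 after E2. Its relative levels after Dex and Dex+E2 were nearly equal, with a log2 ratio between them of 0.01. At chr3:35129835-35131120 the densities were 13.7 after Dex, against 67.6 in untreated cells, and 11.1 after Dex+E2, against 18.4 after E2. On the scale of the library medians, these 4 regions were 2.41 to 3.09-fold lower in Dex over untreated and 2.42 to 2.68-fold lower in Dex+E2 over E2.

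The weakest of the 10 leading regions in untreated cells lay on chromosome X, at chrX:9685458-9686204. Its density was 4.16 after Dex, against 20.1 in untreated cells, and 4.76 after Dex+E2, against 8.40 after E2. The 4.16 rest on 17 tags, and the ratio interval reached from log2 -2.09 to -0.47. On chromosome 3, chr3:75303139-75304167 had 7.35 after Dex, against 32.1 in untreated cells, and 8.17 after Dex+E2, against 13.4 after E2.

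A second region of chromosome 1, chr1:157061988-157063017, had 9.06 after Dex, against 39.3 in untreated cells, and 9.30 after Dex+E2, against 14.2 after E2. At chr11:109656650-109657544 the values were 10.3 after Dex, against 48.2 in untreated cells, and 11.6 after Dex+E2, against 15.4 after E2. Regions ranked 9 and 10 were chr5:140206593-140207667 and chr2:8702561-8703762. The first of these had 7.59 after Dex, against 31.6 in untreated cells, and 7.71 after Dex+E2, against 10.2 after E2. The second had 6.37 after Dex, against 30.4 in untreated cells, and 6.13 after Dex+E2, against 7.999 after E2. In all 10 regions the Dex and Dex+E2 densities were below both the untreated and the E2 density on the deposited scale. The gap between Dex+E2 and E2 was the smaller one on that scale. Relative to the medians it was the smaller one at some of the 10 and the larger one at others. At chr15:33573136-33574621 the log2 ratios were -1.63 for Dex over untreated and -1.42 for Dex+E2 over E2. At chrX:9685458-9686204 they were -1.24 and -1.42.

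**Figure D3:**
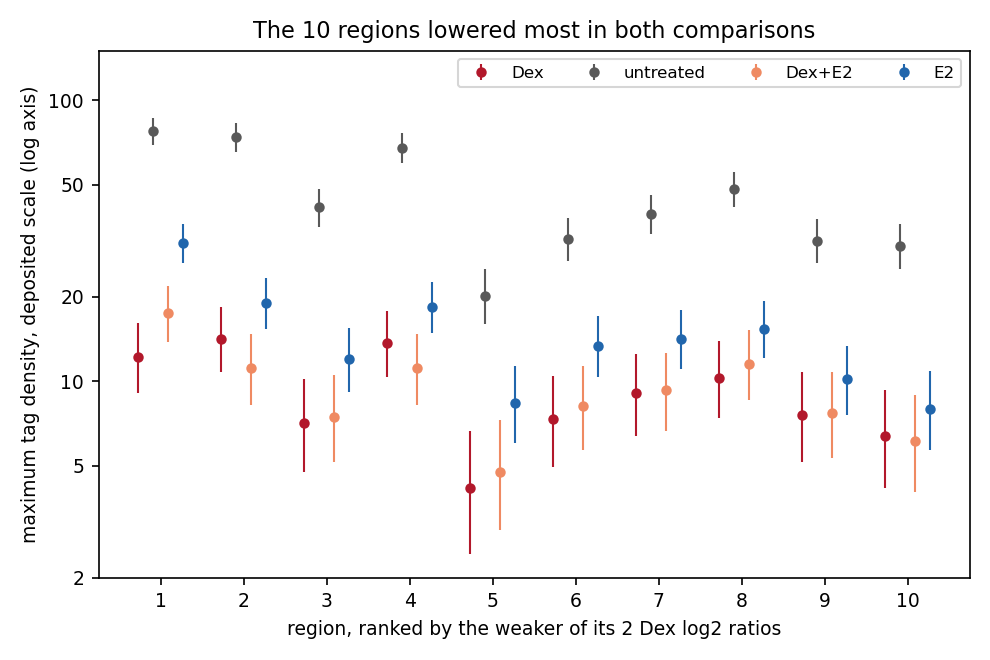
Deposited maximum tag density (log axis) of the 10 regions lowered most, with exact Poisson 95% intervals for counting error, in the Dex, untreated, Dex+E2 and E2 libraries. At rank 1 the Dex value is 12.2, against 77.5 untreated, and the Dex+E2 value is 17.5, against 31.0 after E2.

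The densest Dex-lower region in untreated cells was chr11:59272102-59273205. It had 66.9 after Dex, against 237 in untreated cells, and 57.2 after Dex+E2, against 64.4 after E2. Its Dex ratio of log2 -0.79 rested on 273 and 930 tags and had an interval of -0.99 to -0.60. It was followed by chr3:84122237-84124456, which had 66.4 after Dex, against 217 in untreated cells, and 54.4 after Dex+E2, against 55.8 after E2. At this site the deposited densities of Dex+E2 and E2 nearly coincided, and the log2 ratio of -0.63 came mainly from the library medians. The region chr9:116292105-116293921 had 37.0 after Dex, against 185 in untreated cells, and 32.4 after Dex+E2, against 34.6 after E2. At chr4:8545167-8546349 the densities were 51.9 after Dex, against 183 in untreated cells, and 40.8 after Dex+E2, against 48.6 after E2.

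The scaling to library medians weighs on the second comparison. As deposited, the median log2 ratio of Dex+E2 over E2 was -0.17 at the Dex-lower regions, against 0.56 over all shared regions. Of the 230, 221 had a lower deposited density after Dex+E2 than after E2, against 8.79% of all shared regions. The choice nearly fixes this count, since the library medians were 15.4 after Dex+E2, against 10.2 after E2. For Dex over untreated the deposited median was -1.84, against -1.04 over all shared regions, and all 230 were lower, as were 93.7% of the shared regions. Here the choice fixes the count fully, with medians of 14.7 after Dex, against 30.1 in untreated cells. Both libraries with Dex were below both without it at 227 of the 230 regions relative to the medians (18.2% of shared regions) and at 162 as deposited (3.48%). The choice favours this order as well. With the 1.5-fold limit applied to deposited densities, 32 regions were lower in both comparisons, of which 13 were among the 230.

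The number of tags at a summit sets the counting error. The summit held 17 to 273 tags after Dex, against 56 to 930 in untreated cells, and 18 to 252 tags after Dex+E2, against 26 to 322 after E2. The exact 95% interval of the ratio lay below 1 at 218 of 230 regions for Dex over untreated (13.7% of all shared regions) and at 199 for Dex+E2 over E2 (8.92%). Both intervals lay below 1 at 191 regions (2.57%), and both lay wholly beyond the 1.5-fold limit at 4 (0.0193%). These intervals do not account for the choice of the regions by the same ratios.

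The average tag density of a region, a second deposited measure from the same tags, was lower relative to its medians at all 230 regions in both comparisons (51.0% and 53.3% of all shared regions). It passed the 1.5-fold limit at 179 regions in Dex over untreated (8.94%), at 179 in Dex+E2 over E2 (9.52%) and at 138 in both (1.45%). Near the limit the inclusion was decided by very small differences. The regions just inside by maximum density were chr17:8178383-8179146, chr10:87342474-87343611 and chr3:57305336-57306330, each at 1.5-fold in the weaker comparison. Just outside lay chr14:25032024-25033376, also at 1.5-fold after rounding, followed by chr2:50104840-50106016 and chr15:79854689-79855766, each at 1.497-fold. In whole tags chr14:25032024-25033376 fell exactly on the limit, so that the rounding of the deposited densities kept it out.

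Whether E2 moved the same regions was looked at in the comparisons that isolate E2, which share their libraries with those that chose the regions. For E2 over untreated the median log2 ratio at the Dex-lower regions was -0.10, with 14 regions at least 1.5-fold lower (6.15% of shared regions) and 6 higher (15.5%). For Dex+E2 over Dex it was -0.05, with 12 regions lower (7.59%) and 18 higher (7.96%). The limit was passed in neither of them at 189 of the 230 regions (68.3% of shared regions). The choice bears on these counts, since it took untreated high against Dex and E2 high against Dex+E2. They are thus a description and cannot show whether E2 left the regions unmoved. When Dex+E2 was set against untreated cells, the median log2 ratio was -0.92 and 188 regions were lower (9.27%) and 1 higher (15.3%). Dex alone had -0.81 against the same untreated library, a ratio used in the choice. The ratio of Dex+E2 over untreated is also favoured by the choice, which took Dex+E2 low against E2 and untreated high against Dex.

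A small number of Dex-lower regions differed at least 1.5-fold the same way in both E2 comparisons: 4 were lower (1.40% of shared regions) and 5 were higher (3.29%), and none went opposite ways. The clearest was chr11:54037412-54038441, with 35.6 after E2, against 38.0 in untreated cells, and 34.3 after Dex+E2, against 11.02 after Dex. Relative to the medians its log2 ratios with E2 were 1.47 and 1.57, and its log2 ratios with Dex were -0.75 and -0.65. This site had its lowest deposited density after Dex alone, while the other 3 libraries were close together as deposited. Relative to the medians those 3 lay apart, at 1.26 in untreated cells, 2.22 after Dex+E2 and 3.49 after E2. The higher level after E2 than in untreated cells came from the library medians, since the deposited density was lower after E2. The higher level after Dex+E2 than after Dex was present as deposited too. In the opposite direction, chr3:83103286-83104885 had 9.20 after E2, against 49.0 in untreated cells, and 6.35 after Dex+E2, against 13.0 after Dex. Likewise chr11:107018105-107019368 had 8.999 after E2, against 44.6 in untreated cells, and 6.35 after Dex+E2, against 12.5 after Dex. At these last regions the Dex+E2 library was the lowest of all, at 28 tags each.

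The length called hypersensitive was not used to choose the regions, although it comes from the same tags and is not independent of density. The called length was shorter after Dex than in untreated cells at 224 of 230 Dex-lower regions (83.1% of shared regions), with a median length ratio of 0.712, against 0.854 over all shared regions. After Dex+E2 it was shorter than after E2 at 126 regions (18.3%), with a median ratio of 0.982, against 1.15 over all shared regions. After E2 the called length was shorter than in untreated cells at 226 regions (94.1%), with a median ratio of 0.720, against 0.688 over all shared regions. Between Dex+E2 and Dex it was shorter after Dex+E2 at 125 regions (60.2%), with a median ratio of 0.979, against 0.960. In base pairs the median called length of the Dex-lower regions was 642 after Dex, against 954 in untreated cells, and 641 after Dex+E2, against 664 after E2.

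**Figure D4:**
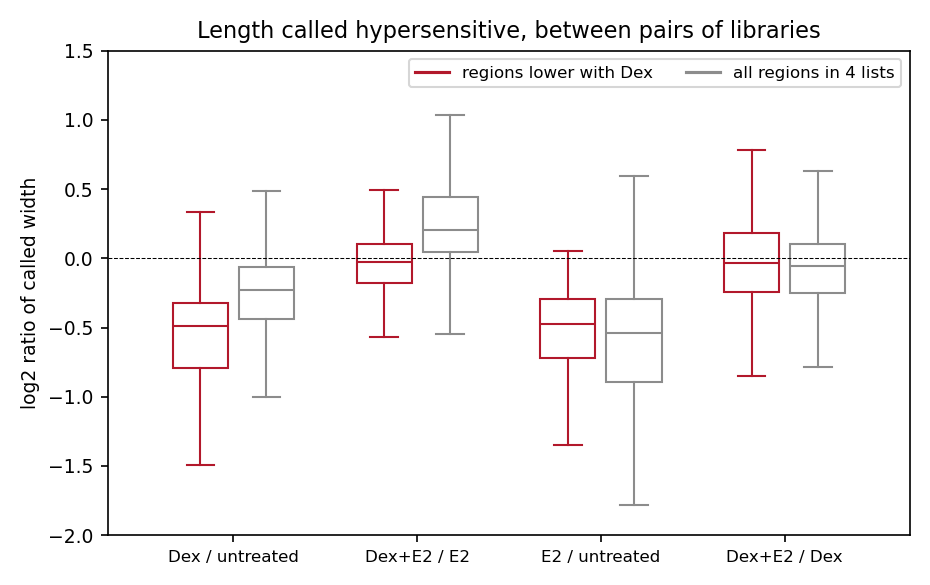
Log2 ratio of the length called hypersensitive between pairs of libraries, for the 230 Dex-lower regions (red) and all 20687 shared regions (grey), with boxes at the quartiles and whiskers to the last value within 1.5 box lengths. The median ratio of Dex over untreated is 0.712 at the Dex-lower regions, against 0.854 at all shared regions.

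The merged Dex-lower regions had a median length of 968 bp (569 to 2219), against 1010 bp for the other 20457 shared regions. Since length and density go together, lengths were also read within terciles of untreated density. In the middle tercile, which held 110 of the Dex-lower regions, the median was 877 bp, against 1001 bp for the other regions. For the 93 in the highest tercile it was 1128 bp, against 1273 bp, and for the 27 in the lowest 809 bp, against 787 bp. The median of the Dex-lower regions was thus the shorter one in the upper terciles and the longer one in the lowest. In the lowest tercile density was not matched, as the median untreated density was 20.1 at the Dex-lower regions, against 15.6 at the others. Few were split: the Dex list held more than 1 deposited region at 9 of the 230 sites (3.91%), against 6.93% of all shared sites.

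Ratios by untreated density are given as a description, since untreated density is the denominator of Dex over untreated and was used in the choice. Among shared regions outside the set, the median log2 ratio of Dex over untreated was 0.30 in the lowest tercile, -0.05 in the middle and -0.14 in the highest. For Dex+E2 over E2 it was -0.18, 0.01 and 0.05 in the same order, the opposite direction. The Dex-lower regions made up 0.385%, 1.62% and 1.35% of these terciles, and the part that density has in their choice was not tested.

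The Dex-lower regions lay on all 20 chromosomes in the lists, and the median distance to the nearest other one was 3177 kb, against 3205 kb from all shared regions. Within 100 kb of another Dex-lower region were 18 of them (7.83%), against 3.75% of all shared regions, and within 10 kb 4 (1.74%), against 0.527%. Within 10 kb of another Dex-lower region, measured between their edges, lay 3 pairs. On chromosome 2, chr2:102783720-102784815 and chr2:102788165-102789216 were 3350 bp apart. The first had 19.3 after Dex, against 83.7 in untreated cells, and 22.2 after Dex+E2, against 23.2 after E2. The second had 15.2 after Dex, against 52.0 in untreated cells, and 13.8 after Dex+E2, against 14.6 after E2.

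A pair on chromosome 5 was formed by chr5:65257158-65259233 and chr5:65268285-65270454, 9052 bp apart. The first had 25.7 after Dex, against 91.6 in untreated cells, and 20.6 after Dex+E2, against 22.8 after E2. The second, among the 5 densest Dex-lower regions in untreated cells, had 46.0 after Dex, against 172 in untreated cells, and 33.6 after Dex+E2, against 34.2 after E2. At both regions, and in the pair on chromosome 2, the deposited gap between Dex+E2 and E2 was narrow. The closest pair, chr5:91465523-91466516 and chr5:91466707-91468289, was 191 bp apart and stood at 22.2 and 26.8 in untreated cells. Such close neighbours may belong to a single stretch of open chromatin, and they were counted as separate regions.

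The neighbouring shared regions outside the set are those that failed the rule. It was applied to the same ratios, so their values are given as a description. At the 51 regions within 5 kb of a Dex-lower region and not in the set, the median log2 ratio of Dex over untreated was -0.20, and 34 of the 51 (66.7%) were below 0, against 50% beyond 100 kb. At 5 to 10 kb it was -0.16 over 54 regions, at 10 to 25 kb -0.13 over 124, at 25 to 50 kb -0.09 over 192, and at 50 to 100 kb -0.06 over 336. Beyond 100 kb 19700 regions had a median of -5.8e-05. In Dex+E2 over E2 the medians were -0.06, -0.17, -0.02, -0.10, -0.07 and -0.03 from the nearest to the farthest band, in no steady order. Of the 51 nearest regions, 32 (62.7%) were below 0 in that comparison, as were 64.8% at 5 to 10 kb, against 52.5% beyond 100 kb. Regions near the set were also denser in untreated cells, with a median of 36.2 within 5 kb, against 29.8 beyond 100 kb, and the part of that difference in the ratios was not tested.

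**Figure D5:**
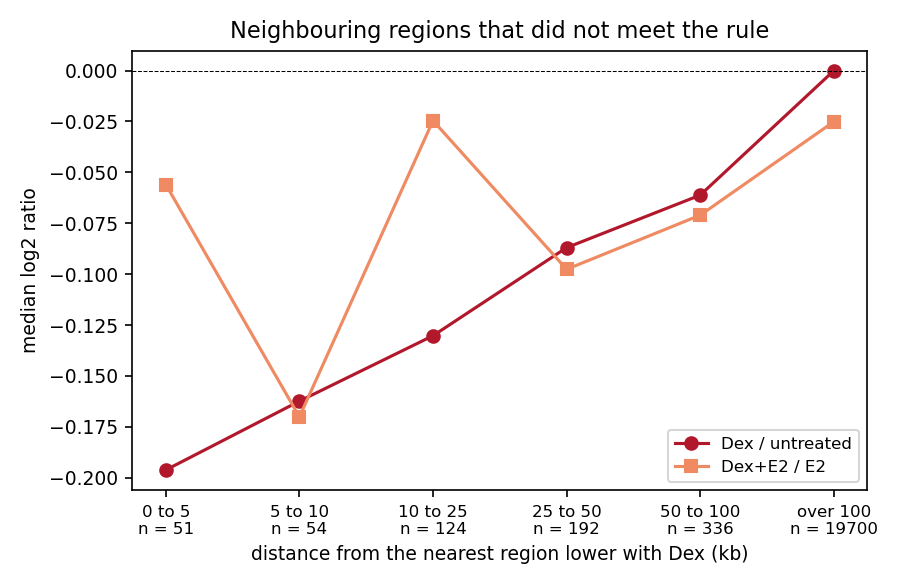
Median log2 ratio of Dex over untreated (circles) and of Dex+E2 over E2 (squares) at shared regions outside the set, by the distance between their middle and that of the nearest Dex-lower region. The number of regions in each band is given under the axis. The Dex over untreated medians go from -0.20 within 5 kb to -5.8e-05 beyond 100 kb.

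Distances to regions with higher density after Dex were read in the same way. Within 10 kb of a region found in both Dex lists only lay 3 of the 230 Dex-lower regions (1.30%), against 4.13% of all shared regions. Shared regions at least 1.5-fold higher in both Dex comparisons were within 100 kb of 18 Dex-lower regions (7.83%), against 13.5% of all shared regions. The median distance to such a region was 1149.9 kb, against 756 kb. All shared regions here include the 753 higher ones, each measured to the nearest other one, and their part in this difference was not tested. The median distance to the nearest shared region was 18.6 kb, against 15.5 kb, while 91.7% of the Dex-lower regions and 91.7% of all shared regions had one within 100 kb. Regions in the untreated and E2 lists only lay within 50 kb of 27 Dex-lower regions (11.7%), against 8.996% of all shared regions. At the other distances the Dex-lower share was not higher. It was 0.435%, against 1.13%, within 5 kb, 2.17%, against 2.25%, within 10 kb, and 15.65%, against 15.75%, within 100 kb. The median distance to such a region was 512 kb, against 488 kb. These shares are descriptions of region positions, with no test of the difference.

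Regions that fell below the listing threshold with Dex could not be in the set. There were 1220 merged regions in the untreated and E2 lists and in neither Dex list, with a median density of 5.60 after E2 and 7.65 in untreated cells. Of these, 3 reached the median untreated density of the shared regions, 30.1. Listing with Dex was a condition of the choice, and the scores come from the libraries that chose the regions, so the following is a description. The deposited Z score of the Dex-lower regions against the background of the same library had a median of 11.04 in the Dex list, against 17.2 over all shared regions there, and of 12.1 in the Dex+E2 list, against 19.0. The lowest Z score was 5.23 in the Dex list and 5.15 in the Dex+E2 list, close to where the lists start.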

How the data were processed

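DNase-seq was measured in 4 libraries, 1 per condition, and the deposited files hold 1 list of hypersensitive regions for each. The submitters' processing notes name the genome build mm9 and the tool CASAVA 1.8 without saying what it did. Which aligner and region caller were used is not given in the sources used here. The labels' extraction text speaks of sonicated nuclei and of no nuclease step. Maximum and average tag density are signal values that the authors scaled per library to a total that is not stated, and since maximum densities come in even steps, 1 step was read as 1 tag. Each Z score and p-value, as deposited by the authors, compares a region with its own library's background. The p-value column was not used.

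Regions of any list that overlapped or touched were merged, with the highest density per library as value. Ratios are relative to library medians. The members and lists were chosen with earlier results of these data known. Regions named are the 10 lowest by weaker ratio, the 5 densest in untreated cells (4 are given apart and the other one with its pair), the 3 on each side of the limit, the 3 clearest in E2, and pairs within 10 kb. Functions were tested on simulated data. Tables were made in Python 3.11.15 with SciPy 1.17.1, pandas 2.3.3 and NumPy 2.4.6, figures with Matplotlib 3.10.9. Intervals are at the 95% level, and distances were taken between region middles unless stated.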

Additional observations from a re-analysis of the deposited data

How the results depend on the processing

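Of 13 alternatives, 8 gave a number of Dex-lower regions within 1.5 times the 230 reported: average density, medians without background-type regions (deposited density in every hormone library at least 0.8 of untreated), upper quartiles in place of medians, joining within 150 bp, means over regions, no chromosome X, a minimum of 30 tags, and crossed pairs of libraries, the last added after seeing the data (182 regions, 113 of them among the 230). Average density gave 300 regions, of which only 138 were among the 230, so a similar number need not mean the same regions. The other planned settings of these 8 kept 219 to 229 of the 230. Without chromosome X the number was 268, since the Dex and Dex+E2 medians each moved by 1 tag. The number was 32 as deposited, 9 with a 2-fold limit and 778 with a limit of 0.75. It was 564 without the E2 library (188 of the 230 included) and 827 without the untreated library (155 included), and in these settings both comparisons share a reference library. As deposited, the median log2 ratio of the 230 was -1.84 for Dex over untreated, -0.17 for Dex+E2 over E2, -1.66 for E2 over untreated and -1.88 for Dex+E2 over untreated, by construction shifted by the medians. No paired analysis was possible because each condition had 1 library and no test was made. Gene starts and motifs were not analysed, for want of an mm9 annotation and genome.

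The main limits are the single library per condition and the unknown scaling total. A global difference between libraries and an effect of hormone on all regions cannot be told apart. The set lies close to its limit, so its membership is uncertain at single regions. With as few as 17 tags at a summit, counting error alone can carry a region across the limit.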

Other observations

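The share of shared regions that were Dex-lower ran from 0.521% on chromosome 15 (5 of 959) and 0.643% on chromosome 6 (7 of 1088) to 1.58% on chromosome 3 (17 of 1079) and 1.66% on chromosome 9 (17 of 1023). Chromosome X had 6 of 513 (1.17%). Relative to the medians, the highest of the 4 libraries was the untreated one at 139 Dex-lower regions and the E2 one at 91. The lowest was Dex+E2 at 128 and Dex at 102. By the choice, only the untreated or E2 library could be highest and only the Dex or Dex+E2 library lowest.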
